A study of Mus musculus with 8 samples.

Results

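The genes examined here encode the factors through which osteoblasts act on osteoclasts. They are Tnfsf11 (RANKL), Tnfrsf11b (osteoprotegerin, OPG), Tnfrsf11a (RANK), Csf1 (M-CSF) and Il34 (IL-34), which are 5 of the 24421 genes in the deposited files and were chosen by name for this role. Calvarial osteoblastic cells were isolated by collagenase and dispase from newborn C57BL/6 mice, either WT or carrying a whole-body Def6 knockout (Def6-/-), and were sequenced at day 0 and at day 12 of culture in osteogenic medium with ascorbic acid and β-glycerophosphate. Each of the 4 groups (WT day 0, WT day 12, Def6-/- day 0 and Def6-/- day 12) had 2 libraries of poly-A RNA, which the study calls biological replicates. The study states that its in vitro controls were WT littermates. Neither the labels nor the methods say which animals or litters each library came from. No depletion of CD45-positive blood cells is stated for these libraries. Def6 had between 112 and 186 reads in the WT libraries and between 0 and 2 in the Def6-/- libraries, so that the labels match the targeted gene.

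Osteoclasts are the bone-resorbing cells that form by fusion of monocyte and macrophage precursors. RANKL on osteoblasts, osteocytes and stromal cells binds RANK on the precursor and starts the osteoclast program through TRAF6, NF-κB and NFATc1. OPG is a secreted decoy receptor that takes up RANKL, so the balance of RANKL to OPG sets how much RANKL reaches RANK. M-CSF and IL-34 are separate ligands of the same receptor, CSF1R, which keeps the precursors alive and dividing.

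All 5 genes reached the minimum for testing, a mean CPM (counts per 1000000 reads) of at least 1, in each of the 4 groups, and 12348 genes in all were tested. Of the 5 genes, 3 moved with culture. Il34 was higher at day 12 in both genotypes and Csf1 was lower in both. Tnfrsf11b was lower in WT cells, with a change of similar size in Def6-/- cells that missed the threshold. Over all genes tested, 12.7% were higher and 5.64% lower by the same test in WT cells, and 12% and 4.79% in Def6-/- cells. The result for Il34 held in every alternative fit, and those for Csf1 and Tnfrsf11b were lost in some. Tnfsf11 had few reads and no change that passed the test, and none of the 5 genes passed the test between the genotypes. The libraries had between 2414856 and 3482837 reads on genes, and WT day 0 replicate 1 stood apart, with 34.9% of its reads not uniquely aligned against 21.4% to 26.6% in the other 7 libraries. In a bulk sample, fewer cells of a type and less RNA per cell cannot be told apart.

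Tnfsf11 lies on chromosome 14 from 78277445 to 78308043, Tnfrsf11b on chromosome 15 from 54250619 to 54278484, Csf1 on chromosome 3 from 107741048 to 107760469 and Il34 on chromosome 8 from 110741829 to 110805924, all on the minus strand of mm10 (GRCm38, GENCODE M21). Tnfrsf11a lies on the plus strand of chromosome 1 from 105780718 to 105847981. The annotation has the antisense genes Gm15894 and Gm15895 across Il34 on the other strand, sharing 22 and 75 exon bases with it, and without a stated strand setting their reads cannot be told from those of Il34. The 250 bases before the start sites of Tnfsf11 and Csf1 are shown because the first was a gene with few reads and no call, and the second the most abundant gene of the group. They are taken from RefSeq (GRCm38.p6), at chr14:78308044-78308293 and chr3:107760470-107760719, and are written 5′ to 3′ on the gene's own strand with the matched motifs in capitals.
Tnfsf11: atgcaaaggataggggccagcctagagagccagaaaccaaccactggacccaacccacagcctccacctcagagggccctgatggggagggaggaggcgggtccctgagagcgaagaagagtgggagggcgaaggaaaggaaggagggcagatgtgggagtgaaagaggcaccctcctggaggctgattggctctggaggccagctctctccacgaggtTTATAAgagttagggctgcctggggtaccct
Csf1: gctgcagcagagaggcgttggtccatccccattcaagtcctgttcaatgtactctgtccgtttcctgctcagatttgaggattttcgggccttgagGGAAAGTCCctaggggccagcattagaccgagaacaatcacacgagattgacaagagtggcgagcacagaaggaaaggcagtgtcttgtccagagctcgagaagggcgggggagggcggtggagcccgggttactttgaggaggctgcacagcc
The 6 motifs below were searched on both strands from 250 bases before to 50 after the start site. TATAA was found in Tnfsf11 at 30 bases before the start, overlapping its match on the opposite strand, and in 24.9% of all 32851 promoters. The NF-κB core GGAANNNCC was found in Csf1 at 154 bases before the start, and in 18.5% of all promoters. The RUNX core TGTGGT (16.8% of promoters), the AP-1 site TGANTCA (7.81%), the cAMP response element TGACGTCA (1.79%) and the interferon response core GAAANNGAA (8.56%) had no match in Tnfsf11, Csf1 or Tnfrsf11a, the 3 genes with an entry. A match or its absence is a description of these letters only.

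The levels of the 5 genes spanned a wide range. Levels are given as normalized CPM, which are reads per 1000000 reads on genes after scaling the libraries with TMM factors, and between genes only per kilobase of exon. In WT cells at day 0, Csf1 was at 166 ± 29.0 normalized CPM per kilobase (SD, n = 2), Tnfrsf11b at 43.8 ± 19.0, Il34 at 4.74 ± 1.51, Tnfsf11 at 3.46 ± 3.10 and Tnfrsf11a at 0.657 ± 0.264. Il34 and Tnfsf11 overlapped between libraries, and the other neighbors in this order did not. Def6-/- cells at day 0 had the same order, from 185 ± 15.1 per kilobase for Csf1 to 0.767 ± 0.449 for Tnfrsf11a, with no overlap between neighbors. At day 12 Il34 stood above Tnfrsf11b in both genotypes. In WT cells at day 12 the levels per kilobase were 99.2 ± 6.60 for Csf1, 25.8 ± 4.70 for Il34, 18.5 ± 0.0999 for Tnfrsf11b, 2.12 ± 0.451 for Tnfsf11 and 1.85 ± 0.852 for Tnfrsf11a, and Tnfsf11 and Tnfrsf11a overlapped. In Def6-/- cells they were 98.8 ± 10.1, 24.6 ± 1.10, 21.1 ± 0.889, 2.15 ± 0.338 and 1.71 ± 0.0118 in the same order.

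**Figure D1:**
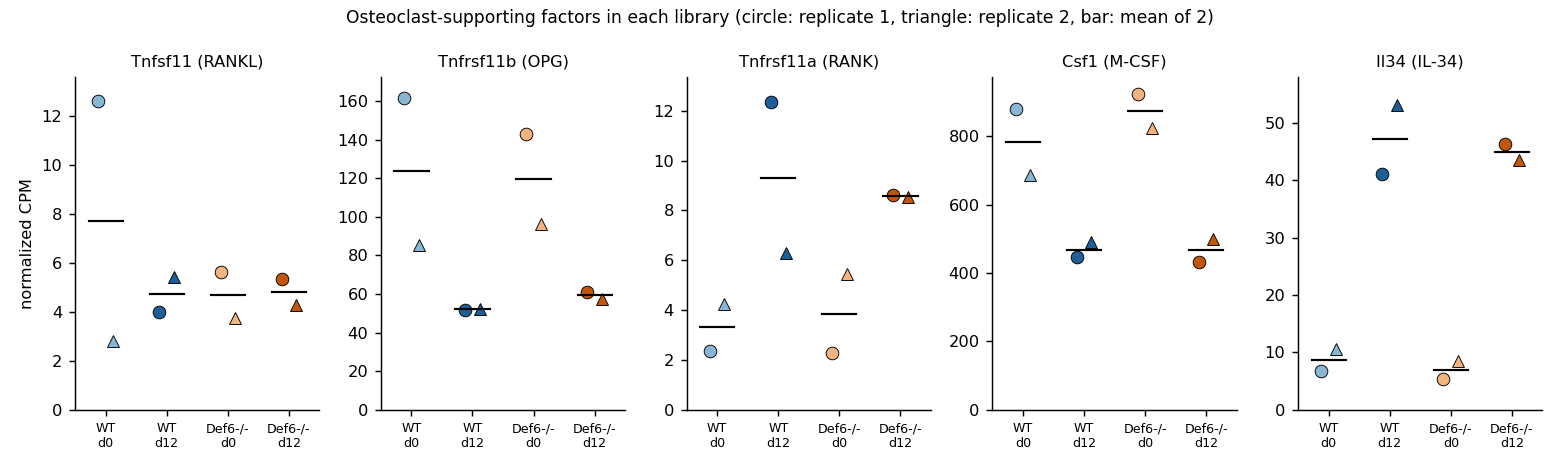
Normalized CPM (y axis, from 0) of each of the 5 genes in the 8 libraries, with circles for replicate 1, triangles for replicate 2 and a bar for the mean of 2. Il34 is at 41.0 or more in each library at day 12 and at 10.6 or less at day 0, Csf1 and Tnfrsf11b are lower in each library at day 12 than in any at day 0, and Tnfsf11 is highest in WT day 0 replicate 1.

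RANKL mRNA was scarce. Tnfsf11 had 32 and 8 reads in the WT libraries at day 0, 15 and 11 in the Def6-/- libraries at day 0, 14 and 13 in WT at day 12 and 13 and 10 in Def6-/- at day 12. These were 12.6 and 2.83 normalized CPM in WT at day 0, 5.65 and 3.75 in Def6-/- at day 0, 4.02 and 5.44 in WT at day 12 and 5.34 and 4.27 in Def6-/- at day 12. WT day 0 replicate 1 was the highest library and WT day 0 replicate 2 the lowest, so that this 1 group spanned all the others. The test was limma on log2(CPM + 1), a scale on which low genes appear to change less than they do, in a single fit of the 4 groups with Benjamini-Hochberg adjustment over the 12348 genes. Between day 0 and day 12 the log2 fold change of Tnfsf11 was -0.35 in WT cells (95% interval -1.59 to 0.90, limma adjusted p = 0.702) and 0.04 in Def6-/- cells (-1.20 to 1.28, limma adjusted p = 0.973), and the groups overlapped in both genotypes. The change in WT cells turned on the replicates at day 0. Its log2 fold change was 0.57 without WT day 0 replicate 1, and -1.26 without replicate 2, which leaves the high library alone. The high library is the one with the high share of reads not uniquely aligned, and the part this played in its Tnfsf11 level was not tested.

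OPG mRNA was lower after osteogenic culture in WT cells. Tnfrsf11b had 409 and 242 reads in WT cells at day 0, 379 and 282 in Def6-/- cells at day 0, 181 and 125 in WT at day 12 and 149 and 135 in Def6-/- at day 12. These were 161 and 85.5 normalized CPM in WT and 143 and 96.1 in Def6-/- cells at day 0, against 51.9 and 52.3 in WT and 61.2 and 57.6 in Def6-/- cells at day 12. All 4 libraries at day 12 were below all 4 at day 0, and at day 0 the libraries numbered replicate 1 were the higher ones in both genotypes. The share of all genes without overlap between days was not counted. Such a lack of overlap is a description only, here and for Csf1, Il34 and Tnfrsf11a below. In WT cells Tnfrsf11b was 2.23-fold lower at day 12 (log2 fold change -1.16, standard error 0.30, limma adjusted p = 0.0300). In Def6-/- cells the log2 fold change was -0.97 (standard error 0.30), and the limma adjusted p of 0.0617 missed the threshold of 0.05. The call in WT cells was lost when only the WT libraries were fitted (limma adjusted p = 0.104) and without either WT day 12 library or either Def6-/- day 12 library (limma adjusted p from 0.0612 to 0.15), and the change in Def6-/- cells was called when only the Def6-/- libraries were fitted (limma adjusted p = 0.00394), with the CPM values as deposited, with DESeq2, and without either WT day 0 library.

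The ratio of Tnfsf11 to Tnfrsf11b reads within a library does not depend on the scaling of the libraries. It was 0.0782 (exact 95% binomial interval 0.0528 to 0.112) and 0.0331 (0.0141 to 0.0662) in WT replicates 1 and 2 at day 0. In Def6-/- cells at day 0 it was 0.0396 (0.0219 to 0.0661) and 0.0390 (0.0193 to 0.0709). At day 12 it was 0.0773 (0.0415 to 0.133) and 0.104 (0.0539 to 0.184) in WT cells, and 0.0872 (0.0454 to 0.154) and 0.0741 (0.0347 to 0.140) in Def6-/- cells. OPG reads thus outnumbered RANKL reads in each of the 8 libraries, by 9.62 to 30.25 reads to 1. At day 0, 3 of the 4 libraries were below all 4 of day 12, and the exception, WT day 0 replicate 1, lay among the libraries of day 12. Over both genotypes the ratio was 1.90-fold higher at day 12 (log2 difference 0.93), which did not pass the two-sided exact permutation test (p = 0.0857, 4 against 4 libraries, smallest possible p 0.0286). Without WT day 0 replicate 1 the log2 difference was 1.19. Leaving out this library, the only one of day 0 among those of day 12, removes the overlap by itself. The lack of overlap in that setting is thus no support for a difference. With 4 reads added to both genes, a setting chosen after seeing the data, the log2 difference was 0.92 (exact permutation p = 0.0286). An added number raises a ratio below 1 least where reads are many. WT day 0 replicate 1 had the most reads of both genes (32 and 409), and its overlap with day 12 was lost through the added reads. This pass is thus no further support for a difference. By genotype the log2 difference was 0.82 for WT and 1.03 for Def6-/- cells, and it was 0.56 among the libraries numbered replicate 1 and 1.29 among those numbered replicate 2. Between the genotypes the log2 ratio was 0.16 below WT in Def6-/- cells at day 12 and 0.37 below at day 0, with overlapping libraries each time (exact permutation p = 0.667 and 1, where 2 against 2 libraries cannot go below 0.333). The intervals cover counting error only.

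**Figure D2:**
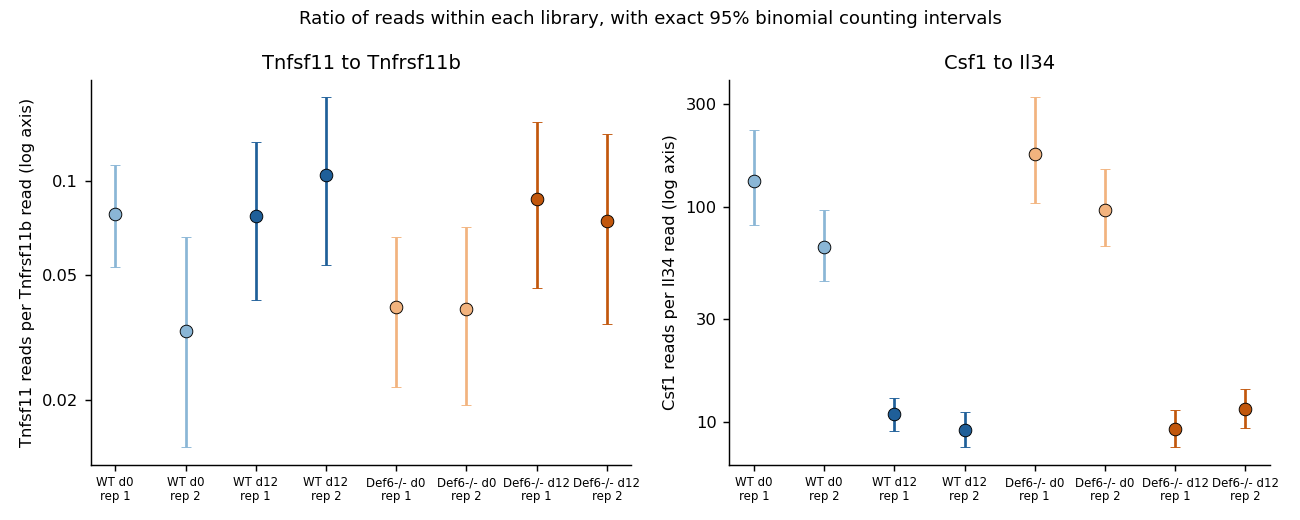
Tnfsf11 reads per Tnfrsf11b read (left) and Csf1 reads per Il34 read (right) in each library on log axes, with exact 95% binomial intervals. On the left the 4 libraries at day 12 lie between 0.0741 and 0.104 and WT day 0 replicate 1 lies among them at 0.0782, while on the right each library at day 12 is at 11.5 or less and each at day 0 at 64.7 or more.

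The CSF1R ligands changed in opposite directions. Csf1 had 2230 and 1942 reads in WT and 2455 and 2416 in Def6-/- cells at day 0, and 1555 and 1171 in WT and 1054 and 1171 in Def6-/- cells at day 12. Its normalized CPM was 880.0 and 686 in WT and 924 and 823 in Def6-/- cells at day 0, against 446 and 490.3 in WT and 433 and 499.8 in Def6-/- cells at day 12. The lowest library at day 0 was above the highest at day 12. Csf1 was 1.66-fold lower at day 12 in WT cells (log2 fold change -0.73, standard error 0.19, limma adjusted p = 0.0296) and 1.87-fold lower in Def6-/- cells (-0.91, standard error 0.19, limma adjusted p = 0.0123). The limma call in WT cells was lost with the CPM values as deposited (adjusted p = 0.0525), when only the WT libraries were fitted (0.156), and without any single library of WT day 12, Def6-/- day 0 or Def6-/- day 12 (0.0594 to 0.162). In Def6-/- cells the call was lost without any single Def6-/- library (limma adjusted p from 0.0579 to 0.124).

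Il34 had 17 and 30 reads in WT and 14 and 25 in Def6-/- cells at day 0, and 143 and 127 in WT and 113 and 102 in Def6-/- cells at day 12. This was 6.71 and 10.6 normalized CPM in WT and 5.27 and 8.52 in Def6-/- cells at day 0, and 41.0 and 53.2 in WT and 46.4 and 43.5 in Def6-/- cells at day 12. The days did not overlap in either genotype. Il34 was 5.05-fold higher at day 12 in WT cells (log2 fold change 2.34, standard error 0.31, limma adjusted p = 0.00129) and 5.95-fold higher in Def6-/- cells (2.57, standard error 0.31, limma adjusted p = 0.000836). It was called in 18 of 18 settings in each genotype, including each fit that left out 1 library.

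The balance of the CSF1R ligands moved with these changes. Csf1 reads outnumbered Il34 reads by 131 and 64.7 to 1 in WT and by 175 and 96.6 to 1 in Def6-/- cells at day 0. At day 12 the ratio was 10.9 and 9.22 in WT and 9.33 and 11.5 in Def6-/- cells. This ratio was set up after the levels were known and has no test. Per kilobase of exon, Csf1 still stood above Il34 in each library at day 12, by 3.57 to 4.44 to 1.

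RANK mRNA was low, most of all at day 0. Tnfrsf11a, the receptor that osteoclast precursors and other myeloid cells carry, had 6 and 12 reads in WT and 6 and 16 in Def6-/- cells at day 0, and 43 and 15 in WT and 21 and 20 in Def6-/- cells at day 12. Its normalized CPM was 2.37 and 4.24 in WT and 2.26 and 5.45 in Def6-/- cells at day 0, against 12.3 and 6.28 in WT and 8.62 and 8.54 in Def6-/- cells at day 12. The 4 libraries at day 12 were above the 4 at day 0, which is a description only. The log2 fold change was 1.23 in WT cells (standard error 0.45, unadjusted p = 0.0234, limma adjusted p = 0.0946) and 1.06 in Def6-/- cells (standard error 0.45, unadjusted p = 0.0428, limma adjusted p = 0.151), so neither passed after adjustment. Without WT day 0 replicate 2 the log2 fold change in WT cells was 1.55, with replicate 1 then the only WT library of day 0.

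Markers of macrophages were higher at day 12 as well. Of 12 macrophage markers, 12 were called higher at day 12 in each genotype, with a median log2 fold change of 3.45 in WT and 3.32 in Def6-/- cells, against -0.0015 and 0.0090 over all genes tested. Their summed level was 419 and 250 normalized CPM in WT and 197 and 311 in Def6-/- cells at day 0. At day 12 it was 6444 and 3203 in WT and 4005 and 3542 in Def6-/- cells. The library with the highest sum, WT day 12 replicate 1, also had the highest Tnfrsf11a, and the lowest sum at day 12, in WT replicate 2, stood beside the lowest Tnfrsf11a of that day. At day 0 the orders did not match, since WT replicate 1 had the highest sum and a Tnfrsf11a level among the lowest. Il34 was lowest in WT day 12 replicate 1 and highest in WT day 12 replicate 2 among the libraries of day 12. The part of the macrophage signal in the levels of Tnfrsf11a and Il34 was not tested. Markers of osteocytes and adipocytes also moved with the day, with summed levels of 86.8 to 108 and 36.9 to 47.0 normalized CPM at day 0 and of 234 to 453 and 311 to 436 at day 12, while those of 4 chondrocyte markers were 1964 to 3812 at day 0 and 849 to 1218 at day 12. Among the latter, Col2a1, a cartilage collagen, was called lower in both genotypes (log2 fold change -1.50 in WT and -1.86 in Def6-/- cells), as Csf1 was, and Col10a1 was called higher (2.28 and 2.37). The part of these cell types in the levels of the 5 genes was not tested. Of the 7 osteoclast markers 3 were tested and 1 was called. Atp6v0d2, a subunit of the osteoclast proton pump, had 0 to 4 reads at day 0 and 29 to 53 at day 12 (log2 fold change 3.47 in WT and 3.39 in Def6-/- cells, limma adjusted p = 0.00194 and 0.00219), and its part in the levels of Tnfrsf11a was not tested. Calcr, the calcitonin receptor, was at 0 reads in each library and Ocstamp, Oscar and Car2 had 0 to 2. The osteoclast list does not hold Acp5, Ctsk or Itgb3, and the macrophage list does not hold Adgre1, Cd14, Itgam, Fcgr3 or Ptprc. The deposited values of these genes are in part not whole reads, so both lists describe their own genes only. The summed level of the 7 listed osteoclast markers was between 48.5 and 72.6 normalized CPM at day 0 and between 71.0 and 112 at day 12. Nfatc1, which was not called, gave 28.4 to 58.0 of this at day 0 and 36.9 to 47.6 at day 12. Mmp9 gave 55.5 in Def6-/- day 12 replicate 2, the library with the highest sum. Atp6v0d2 alone went from 0 to 1.58 at day 0 to 12.4 to 21.8 at day 12, which the sum does not show. The T cell markers Cd3e, Cd3g and Cd3d were at 0 reads in each library, and the summed level of the 5 T cell markers was between 0 and 1.67 normalized CPM. Tnfsf11 is also made by T cells. The labelled osteoblastic cells carried 6 of 7 osteoblast markers at day 0, with Bglap at 0 reads, and 7 of 7 at day 12.

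**Figure D3:**
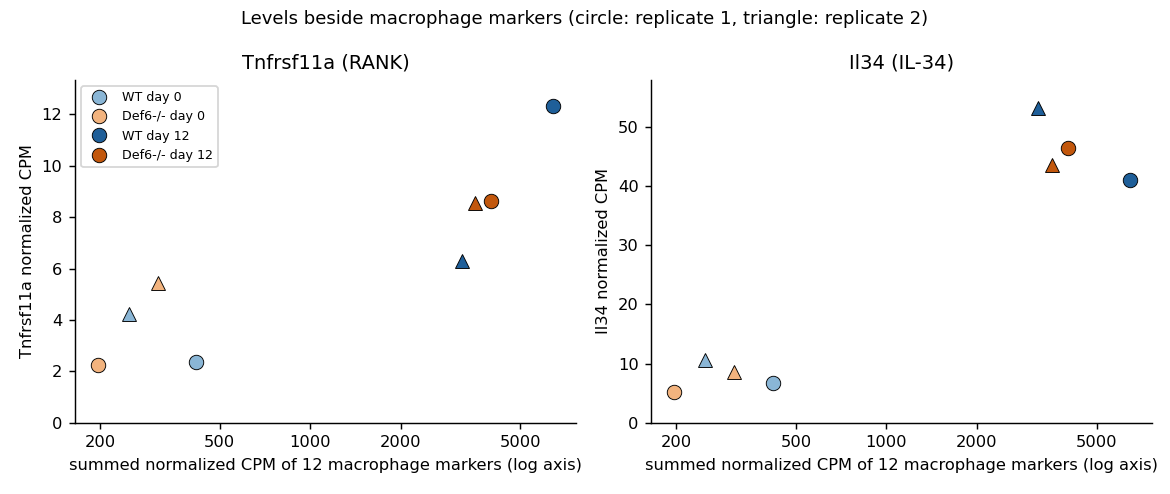
Normalized CPM of Tnfrsf11a (left) and Il34 (right) on the y axis, from 0, against the summed normalized CPM of 12 macrophage markers on a log x axis, for the 8 libraries. The libraries of day 0 have sums of 197 to 419 and those of day 12 sums of 3203 to 6444, and among the latter Tnfrsf11a is highest and Il34 lowest in WT replicate 1.

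Counted together, 3 of the 5 genes were called in WT cells (limma adjusted p under 0.05), with Il34 higher and Csf1 and Tnfrsf11b lower at day 12, where 12.7% of all genes tested were called higher and 5.64% lower. In Def6-/- cells 2 of 5 were called, Il34 higher and Csf1 lower, against 12% of all genes higher and 4.79% lower. With only 5 genes these shares are a description.

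No difference of these genes between Def6-/- and WT cells was detectable with 2 libraries per group. The call between genotypes used an unadjusted limma p under 0.05 and a change above 1.2-fold; the study used these cut-offs with edgeR's test. None of the 5 genes was called at day 0, where 2.3% of all genes were, or at day 12, where 1.4% were, and none had an unadjusted p under 0.05 at either day in limma. After adjustment 1 gene of all those tested, Def6 itself, passed at each day. At day 12 the change of Def6-/- against WT had 95% intervals of 0.736- to 1.34-fold for Csf1, 0.592- to 1.57-fold for Il34, 0.705- to 1.83-fold for Tnfrsf11b, 0.479- to 1.97-fold for Tnfrsf11a and 0.430- to 2.40-fold for Tnfsf11. Csf1 was thus bounded most closely and Tnfsf11 least. The fit used 1 spread per gene over all 4 groups, so the libraries of day 0 also set these widths. For Tnfsf11 the libraries lay between 4.02 and 5.44 normalized CPM at day 12 and between 2.83 and 12.6 at day 0. Beside these values, 4 of 6 adipocyte markers were called higher in Def6-/- cells at day 12, with sums of 426 and 436 normalized CPM against 311 and 333 in WT cells. Of the osteocyte and osteoblast markers, 1 each was called higher there: Sost (2 and 0 reads in WT against 14 and 12 in Def6-/- cells) and Bglap (22 and 18 against 46 and 33). The Tnfrsf11b libraries of the genotypes did not overlap at day 12, with 57.6 and 61.2 normalized CPM in Def6-/- cells above 51.9 and 52.3 in WT cells, but the fold change of 1.14 did not pass (unadjusted p = 0.559, limma adjusted p = 1). This limma p also rests on the wider pairs of day 0, 161 and 85.5 in WT and 143 and 96.1 in Def6-/- cells. The share of all genes without overlap was not counted, so the lack of overlap is a description only. At day 0 the intervals were 0.830- to 1.52-fold for Csf1, 0.502- to 1.33-fold for Il34, 0.618- to 1.61-fold for Tnfrsf11b, 0.538- to 2.21-fold for Tnfrsf11a and 0.329- to 1.84-fold for Tnfsf11. At day 0 a single WT library decided what was called. Without WT day 0 replicate 2, the log2 fold change was -1.28 for Tnfsf11 and -0.46 for Tnfrsf11b. This leaves WT at day 0 to replicate 1, the library with the high share of reads not uniquely aligned. Without WT day 0 replicate 1, the log2 fold change of Csf1 was 0.35. In each of these fits WT at day 0 is 1 library, whose spread is assumed from the other groups.

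A difference between the genotypes in the change over time was not detectable either. The interaction, the change in Def6-/- cells minus that in WT cells, was -0.17 for Csf1, 0.24 for Il34, 0.19 for Tnfrsf11b, -0.17 for Tnfrsf11a and 0.39 for Tnfsf11 on the log2 scale. None of the 5 had an unadjusted p under 0.05, against 1.13% of all genes. This threshold lets through a share of about 0.05 when no gene differs, so 1.13% is below that level. The reason for the low share was not tested. The interval of the interaction was -0.79 to 0.44 for Csf1 and -1.37 to 2.14 for Tnfsf11. Without WT day 0 replicate 2, which leaves replicate 1 as the only WT library of day 0, the interaction was 1.30 for Tnfsf11 and 0.64 for Tnfrsf11b.

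**Figure D4:**
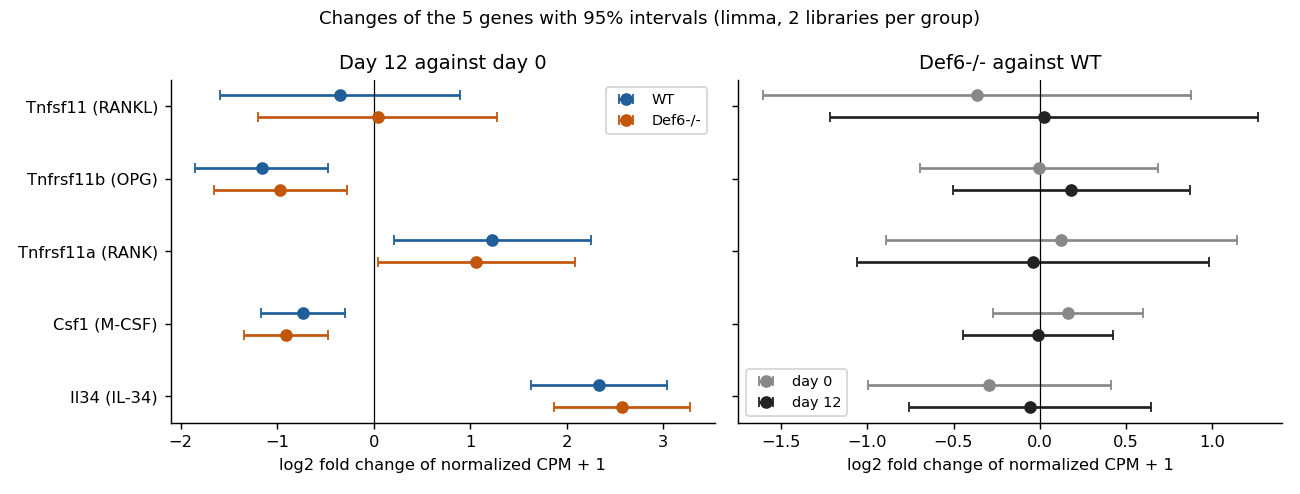
Log2 fold changes of normalized CPM + 1 (x axis) of the 5 genes with 95% intervals from limma, day 12 against day 0 in each genotype on the left and Def6-/- against WT at each day on the right. On the left Il34 is at 2.34 and 2.57 and Csf1 at -0.73 and -0.91, and on the right each of the 10 intervals holds 0.

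The receptors and binding partners of these factors were described from a list of 9 genes, 7 of them tested. At day 12, 1 was called higher and 2 lower in WT cells, and 2 higher and 2 lower in Def6-/- cells, against 12.7% of all genes higher and 5.64% lower in WT cells and 12% and 4.79% in Def6-/- cells. Without Csf1r, whose values could not be compared between days, the median log2 fold changes of the other 6 were -0.18 and -0.40. Lgr4, a receptor that also binds RANKL, was lower at day 12, with 71.0 and 126 normalized CPM in WT at day 0, 110 and 98.1 in Def6-/- at day 0, and 44.8 to 48.5 in the 4 libraries of day 12 (log2 fold change -0.97 in WT and -1.14 in Def6-/- cells, limma adjusted p = 0.0335 and 0.0182). Tnfrsf10b, the mouse receptor for the death ligand TRAIL that OPG also binds, was lower as well (log2 fold change -1.26 and -1.52). Tnfsf10, which encodes TRAIL, had 0 or 1 read in each library. Sdc1, a heparan sulfate proteoglycan, was between 155 and 186 normalized CPM in each of the 8 libraries and had log2 fold changes of 0.10 and 0.01 between days. Ptprz1, a phosphatase that binds IL-34, had 90 and 58 reads in WT and 269 and 92 in Def6-/- cells at day 12. It was called higher in Def6-/- cells at that day (log2 fold change 1.36, unadjusted p = 0.0103, limma adjusted p = 1), and Def6-/- replicate 1 carried most of the difference. Trem2, a myeloid receptor, was higher at day 12 (log2 fold change 3.63 and 3.42), moving with the macrophage markers.

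Csf1r, the receptor of M-CSF and IL-34, could not be compared between days. It had 71 and 65 reads in WT and 57 and 78 in Def6-/- cells at day 0. At day 12 its deposited values came to 78.5 and 23.5 reads in WT and 29.8 and 30.7 in Def6-/- cells, which are not whole reads. Such values were found in 9 genes, all of them markers of blood or bone-resorbing cells: Acp5, Adgre1, Cd14, Csf1r, Ctsk, Fcgr3, Itgam, Itgb3 and Ptprc. For Csf1r, 10 times each value of day 12 was whole. How these values were made is not given in the sources used here.

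Among the 22 other secreted or surface regulators of osteoclasts, 19 were tested. At day 12, 8 were called higher and 2 lower in WT cells, and 7 higher and 2 lower in Def6-/- cells, with median log2 fold changes of 0.36 and 0.32. In WT cells this was 42.1% higher and 10.5% lower, and in Def6-/- cells 36.8% and 10.5%, where all genes tested gave 12.7% and 5.64%, and 12% and 4.79%. Cxcl12, a chemokine that draws blood precursors, had 161 and 160 reads in WT and 88 and 177 in Def6-/- cells at day 0 and 4105 or more in each library at day 12 (log2 fold change 4.93 in WT and 5.32 in Def6-/- cells). Sfrp1, a secreted Wnt antagonist that also binds RANKL, was higher by 4.81 and 5.17, and Wnt16, which acts on osteoclast precursors and raises OPG, by 3.11 and 3.38. Bmp2, a bone morphogenetic protein, was higher by 2.88 and 2.66. The 2 lower genes are known inducers of Tnfsf11. Ptgs2, the enzyme of prostaglandin E2 synthesis, had 894 and 207 reads in WT and 774 and 220 in Def6-/- cells at day 0, and 57 and 19 in WT and 78 and 16 in Def6-/- cells at day 12 (log2 fold change -3.70 and -3.21, limma adjusted p = 0.0236 and 0.0437). In each of the 4 groups the library numbered replicate 1 was the higher one. Lif, a cytokine of the interleukin 6 family, had log2 fold changes of -1.25 and -1.60. The interaction passed for Dkk1 (1.18) and Efnb2 (-0.81) at an unadjusted p of 0.0437 and 0.0414 (limma adjusted p = 1 for both), which were named after their values were seen.

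Receptors and factors that act upstream of Tnfsf11 in osteoblasts formed a list of 22 genes, all tested. At day 12, 5 were called higher and none lower in WT cells, and 7 higher and none lower in Def6-/- cells, with median log2 fold changes of 0.42 and 0.44. The higher genes were 22.7% and 31.8% of the list, against 12.7% and 12% of all genes tested. Pth1r, the parathyroid hormone receptor, was higher by 1.97 in WT and 2.57 in Def6-/- cells, with 30.4 to 43.4 normalized CPM at day 0 and 141 to 241 at day 12. Il11ra1, the interleukin 11 receptor, was higher by 1.86 and 2.21, Lifr by 2.28 and 2.15, and the prostaglandin E2 receptor Ptger2 by 2.46 and 2.40 from 0 to 4 reads at day 0. Ptger4, another prostaglandin E2 receptor, had 21 and 11 reads in WT and 28 and 23 in Def6-/- cells at day 12 and was called higher in Def6-/- cells (log2 fold change 0.89, unadjusted p = 0.0216, limma adjusted p = 1). Beside these receptors, Tnfsf11 itself had 10 to 14 reads in each library of that day.

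Proteases that release membrane RANKL or M-CSF, and their inhibitors, formed a list of 9 genes, 8 of them tested. At day 12, 1 was called higher and 1 lower in WT cells, and 2 higher and 1 lower in Def6-/- cells, with median log2 fold changes of 0.19 and -0.05. In so short a list, 12.5% to 25% higher and 12.5% lower stand beside 12.7% and 12% higher and 5.64% and 4.79% lower over all genes. Mmp14, a membrane protease that cuts RANKL, was higher at day 12, with 607 to 732 normalized CPM at day 0 and 986 to 1107 at day 12 (log2 fold change 0.76 in WT and 0.61 in Def6-/- cells, limma adjusted p = 0.0156 and 0.0381). Timp3, an inhibitor of such proteases, was lower (log2 fold change -0.97 and -0.92). At day 12 Timp3 was at 671 and 604 normalized CPM in WT and 886 and 821 in Def6-/- cells, and was called higher in Def6-/- cells (log2 fold change 0.42, unadjusted p = 0.0364, limma adjusted p = 1). Adam17, which releases M-CSF, was called higher in Def6-/- cells (log2 fold change 0.57, limma adjusted p = 0.0498) and had 0.47 in WT cells (0.0939).

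The genes that carry the RANK signal were described from a list of 32, of which 30 were tested. At day 12, 5 were called higher and 1 lower in each genotype, with median log2 fold changes of 0.17 and 0.07. These counts, 16.7% higher and 3.33% lower, were close to the shares over all genes, 12.7% and 5.64% in WT and 12% and 4.79% in Def6-/- cells. The called genes with the smallest p were Fcer1g, Spi1, Tyrobp and Btk, which myeloid cells express, with log2 fold changes of 3.41, 2.94, 3.00 and 2.46 in WT cells and 3.33, 2.67, 3.07 and 1.85 in Def6-/- cells. Fcer1g and Tyrobp are also among the 12 macrophage markers. Fos, a transcription factor of the AP-1 family, was lower (log2 fold change -1.07 and -0.90). Of the 86 genes tested over the 5 lists, 26 were called in WT cells and 29 in Def6-/- cells between days. Between genotypes none was called at day 0 and 3 were called at day 12, Ptprz1, Ptger4 and Timp3, against 1.4% of all genes, and none of the 3 was called without Def6-/- day 12 replicate 1.

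**Figure D5:**
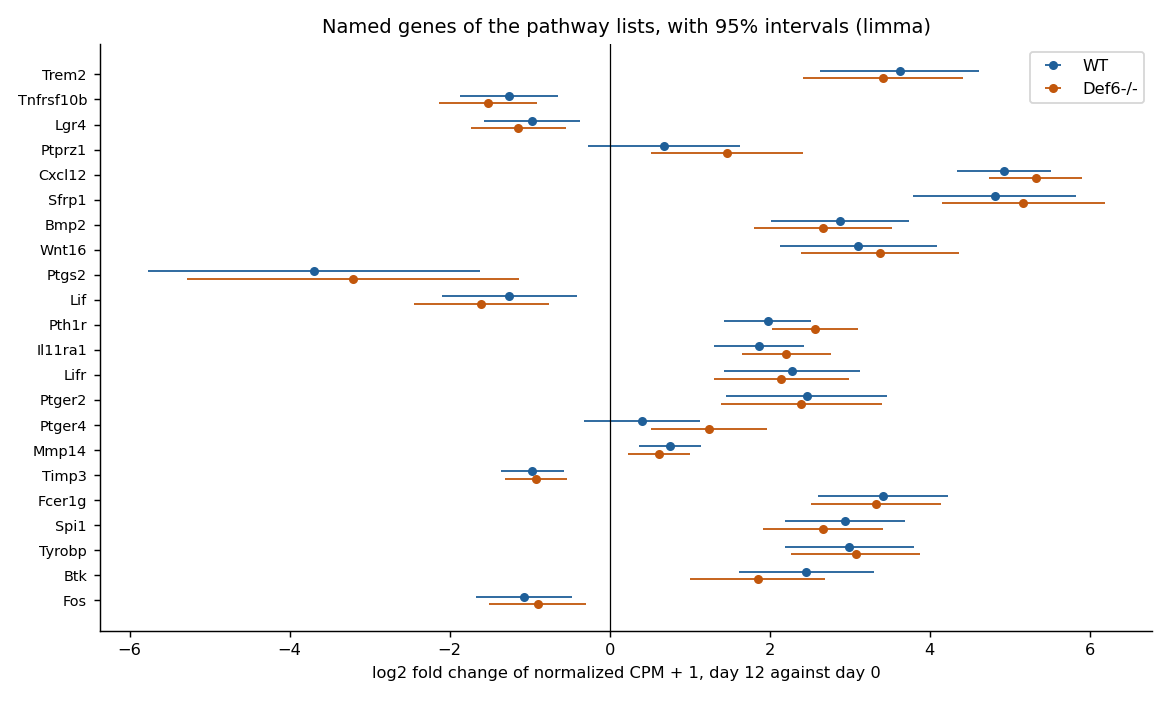
Log2 fold changes of normalized CPM + 1 between day 12 and day 0 (x axis), with 95% intervals from limma, for the named genes of the pathway lists in WT cells (blue) and Def6-/- cells (orange). Cxcl12 is highest at 4.93 and 5.32 and Ptgs2 lowest at -3.70 and -3.21.

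The genes whose levels ran most closely with each of the 5 over the 8 libraries are given by Pearson's r of log2(CPM + 1), as a description. For Il34 they were Kcns1 (r = 0.997), Col14a1 (0.997) and Lect1 (0.996). For Csf1 they were Dpysl3 (0.992), Jph2 (0.991) and Cdc40 (0.990), and for Tnfrsf11b Ilk (0.996), Farsb (0.992) and Lurap1l (0.991). For Tnfrsf11a they were Btbd6 (0.982), Zfp467 (0.982) and Rnf157 (0.981). For Tnfsf11 they were Rab2a (0.990), Ppp2ca (0.987) and Atg12 (0.980), where the libraries of WT at day 0 span the range. These values share the step between the days or a single library, so that they are not independent.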

How the data were processed

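RNA of calvarial osteoblastic cells was sequenced as poly-A libraries on an Illumina instrument. The authors aligned reads to mm10 with HISAT2 and counted them with HTSeq, and the deposited values are CPM made with edgeR, relative to all reads including those outside genes (28.8% to 35.3% fall on genes). fastp is also named in the submitters' processing notes. Versions, annotation and strand setting are not given in the sources used here. Whole reads were recovered for 99.957% of 114821 positive values (tolerance 0.02 read). Because the files hold CPM, the count tests of edgeR 4.0.16 and DESeq2 1.42.0 on these reads are alternatives.

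Values were rescaled to reads on genes with TMM factors and tested with limma 3.58.1 in R 4.3.3 (lmFit and trended eBayes) after adding 1 and taking log2, over all 8 libraries and 4 group means, for genes whose deposited CPM averaged 1 or more in any group. Replicates differed beyond sampling noise, most of all in WT at day 0. The chi-square per gene was 34.3 in WT day 0, 12.6 in WT day 12, 4.95 in Def6-/- day 0 and 4.53 in Def6-/- day 12. The p-values measure the spread between libraries only. Read ratios were tested by exact permutation over libraries, two-sided, in SciPy 1.17.1. Exon lengths and positions came from GENCODE M21. The alternatives were no filter or 2 CPM, pseudocounts of 0.1 and 4, CPM as deposited, DESeq2 size factors, only the groups compared, a replicate block and each library left out. The genes, lists and tests were chosen with earlier results of these data known. From each list, up to 4 genes per direction with the smallest p among those called in both genotypes, and each gene called between genotypes at day 12, are named, with 5 receptors and ligands whatever their values and the 3 genes most like each member.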

Additional observations from a re-analysis of the deposited data

Results flagged for a closer look

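Among the genes of the pathway lists, 2 had a change over time that differed between the genotypes by the interaction term of limma at an unadjusted p under 0.05, and neither passed after adjustment (limma adjusted p = 1 for both). For Dkk1, a secreted Wnt inhibitor, the interaction was 1.18, with 1 read in each WT library and 0 in each Def6-/- library at day 0, and 20 and 9 reads in WT and 20 and 20 in Def6-/- cells at day 12. For Efnb2, the ligand through which osteoclasts signal to EPHB4 on osteoblasts, the interaction was -0.81. Its normalized CPM was 45.4 and 70.3 in WT and 70.4 and 83.8 in Def6-/- cells at day 0, against 66.0 and 67.0 in WT and 55.4 and 47.4 in Def6-/- cells at day 12. The interaction term was passed by 1.13% of all genes tested, which is under the share of about 0.05 that this threshold lets through when no gene differs.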

How the results depend on the processing

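Il34 was called in 18 of 18 settings in both genotypes. Of 445 alternative values for the 5 genes, 415 kept their side of the threshold, 13 passed it newly and 17 no longer did; 34 changed sign with neither value past it, and none that was called changed direction. With only the groups compared, the genes called between days in WT cells went from 3 to 1, and the pathway list genes called went from 26 to 16 in WT cells, from 29 to 50 in Def6-/- cells and from 3 to 12 between genotypes at day 12. The list genes with an interaction went from 2 to 0 with CPM as deposited and with DESeq2, and to 1 with a filter at 2 CPM. At day 0 the list genes called between genotypes went from 0 to 1 with a pseudocount of 0.1. The log2 ratio difference of Tnfsf11 to Tnfrsf11b between days was 0.89 with 4 added to the normalized CPM of both genes, a value that depends on the scaling of the libraries, and 0.92 with 4 added to their reads, a setting chosen after seeing the data; both passed the exact permutation test (p = 0.0286, 4 against 4), while 0.1 added to the normalized CPM did not (p = 0.0571). An added number raises this ratio least where the values are high, and WT day 0 replicate 1 had the highest values of both genes. The passes with 4 added are thus no further support for a difference. The causes of the other changes were not tested. With CPM as deposited the median of all genes between genotypes at day 0 moved from -0.02 to 0.10.

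Leaving out 1 library at a time, the 5 genes called ranged from 1 to 5 in WT cells (5 without WT day 0 replicate 2), 1 to 3 in Def6-/- cells, 0 to 2 between genotypes at day 0, 0 to 0 at day 12 and 0 to 2 for the interaction. The list genes called ranged from 13 to 55 in WT cells, 14 to 50 in Def6-/- cells, 0 to 35 and 0 to 8 between genotypes at day 0 and day 12, and 0 to 23 for the interaction, with each highest count without WT day 0 replicate 2 (shared with the fit without WT day 0 replicate 1 for 50 and 8) and the lowest between days without WT day 12 replicate 1 and Def6-/- day 12 replicate 2. The log2 ratio difference ranged from 0.78 to 1.19 between days, -0.37 to 0.06 between genotypes at day 12 and -0.99 to 0.25 at day 0. The group left with 1 library is assumed to vary like the others.

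The libraries share replicate numbers across groups, but no source says that a number marks a shared animal or batch. Deviations of same-numbered libraries correlated across genes by 0.088 and 0.152 between days in WT and Def6-/- cells, and by 0.327 and 0.037 between genotypes at day 0 and day 12. With a replicate block, Tnfrsf11b was called lower at day 12 in Def6-/- cells (log2 fold change -0.97, limma adjusted p = 0.0284), the list genes with an interaction went from 2 to 1, and no other call of the 5 genes changed. The ratio difference within the libraries numbered replicate 1 (0.56) and replicate 2 (1.29) was added after seeing the data. With 8 to 32 reads on Tnfsf11 and 6 to 43 on Tnfrsf11a, changes smaller than the intervals given could not be seen.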
